A study of Homo sapiens with 6 samples.

Results

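Relative to other abundant transcripts, no gene of the core splicing machinery passed the test for a difference between heat shocked and control HEK293 cells. The genes examined encode the protein core of the spliceosome and the heterogeneous nuclear ribonucleoproteins (hnRNPs), and they were chosen by name alone, as the names in the deposited table that begin with HNRNP, SNRP, SF3A or SF3B or that equal SF1, U2AF1 or U2AF2. Of the 23659 genes in the assemblies, 45 had such a name after 6 pseudogene and antisense names were left out. The cells, HEK293, are an established line from human embryonic kidney. The 3 control cultures were grown in DMEM with serum at 37°C and 5% CO2 and were otherwise untreated, while the 3 heat shocked cultures, grown the same way, were held as an aliquot in a tube at 45°C, in a water bath, for 30 minutes, and the paper places collection 30 minutes later. Trizol RNA was cleared of ribosomal RNA before sequencing, each sample gave 1 library, and no genotype or drug set the groups apart. The labels do not say whether the samples of a group came from separate passages, so the p-values measure only the spread between these libraries, which may be technical.

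The spliceosome removes introns from pre-mRNA. Its small nuclear ribonucleoprotein particles (snRNPs) each carry a ring of Sm proteins around a small nuclear RNA, and the U1 and U2 particles add proteins of their own. SF1 and the U2AF heterodimer read the branch point and the 3′ splice site before the SF3A and SF3B complexes anchor the U2 particle there, and the hnRNPs coat nascent RNA and influence which splice sites are used. Heat stress is known in many cells to disturb splicing while transcription of heat shock genes goes on, and the genes below are therefore among those whose own transcripts a reader might wish to follow.

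The libraries differed in ways that did not follow the groups. Each transcript carries an FPKM value, which is fragments scaled by transcript length and by mapped fragments, and the value of a gene is here the sum over its transcripts in a library. Relative depth, read from the ratio of coverage to FPKM, spanned 1 to 2.03, and no read counts are known. Abundant genes shared a common factor in each library, a median of ratios taken from 990 genes that exceeded 10 FPKM in every library, 28 of them from the group itself. It was 0.937, 0.434 and 0.957 for control replicates 1 to 3, and 2.13, 2.32 and 0.487 for the heat shock replicates in the same order. A value divided by this factor is called relative below. The single-exon transcripts without a strand numbered 17304 to 194489 per library and were most numerous in control replicates 1 and 2 and heat shock replicate 3. Their part in the results was not tested beyond a term in the fit, which is given with the other alternatives. As a check of the treatment, 11 of 12 heat shock genes passed the minimum level, and for 6 of them all 3 heat shock libraries lay above all 3 controls on the relative scale. DNAJB1, a co-chaperone of HSP70, had relative values of 7.81, 11.2 and 9.59 in control cells against 56.8, 50.2 and 69.8 after heat shock. Of the neurofilament and other transcripts known from HEK293, NEFL was present at relative values of 5.03 to 5.70 and PAX2 ranged from 0.138 to 8.76, while the defining markers ALB, HBB and PTPRC of other cell types lay at 0.792 or below in every library, and PECAM1, MYH7 and COL1A1 reached 2.01, 2.80 and 7.97.

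Of the 45 genes, 41 had a mean of at least 1 FPKM and were tested. HNRNPH2, which encodes a close relative of hnRNP H1, was listed at 0 in all 6 libraries, where its locus was joined with that of RPL36A, and this says nothing of its expression. SNRPN, a relative of SNRPB used mainly in neurons, reached at most 0.487 on the relative scale. HNRNPCL1, a copy of HNRNPC, and the read-through locus HNRNPUL2-BSCL2 were listed at 0 in 4 and 5 libraries. HNRNPA1, HNRNPA3, HNRNPC, HNRNPK and the small Sm genes have pseudogenes or near-identical copies elsewhere in the genome, so their values are uncertain to the extent that reads were split among copies.

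As deposited, the values of nearly all of the genes were higher in the heat shock libraries on average, but none passed the test. The mean of log2(FPKM + 1) was higher after heat shock for 40 of the 41 genes, with a median change of 0.84. Over all 13145 genes tested it was higher for 9575, with a median of 0.45. Among genes averaging at least 10 FPKM, it was higher for 34 of 35 of the group and for 2780 of 2951 in all. Their medians were 0.86 and 0.82, so the group moved much like other genes at such levels. None of the 41 passed an adjusted p-value of 0.05 with a change of more than 2-fold (limma, Benjamini-Hochberg adjustment), against 3 genes in all, or 0.0228%. The median standard error of the 41 changes was 0.93 on the log2 scale, and in data simulated with this spread the fit recovered none of the differences put in, large ones included, so its count says nothing of whether the genes were stable. At an unadjusted p-value under 0.05, again 0 of the 41 passed, against 486 genes in all, or 3.7%. All 3 heat shock libraries lay above all 3 controls for 1 gene, HNRNPL, against 3.72% of all genes. In heat shock replicate 3, 65.1 of the 70.7 FPKM of HNRNPL came from 1 single-exon fragment. With each transcript weighted by its length, HNRNPL stood there at 26.7, below control replicates 1 and 3 at 49.0 and 48.3. HNRNPK, which binds poly(C) stretches, is typical of the group and was named after its values were seen. Its FPKM were 63.6, 26.9 and 67.1 in control cells against 149, 155 and 32.1 with heat shock. Of these sums, its annotated transcripts gave 26.2, 7.69 and 0 in control cells against 63.5, 61.4 and 14.4 with heat shock. Assembled transcripts grouped with the gene gave the rest. Heat shock replicates 1 and 2 were thus the highest and heat shock replicate 3 lay below control replicates 1 and 3. Either heat shock replicate 1 or 2 held the highest value for 36 of the 41 genes, and either control replicate 2 or heat shock replicate 3 held the lowest value for all 41. The median change of 0.84 moved to 0.43 without control replicate 2, to 0.50 and 0.46 without heat shock replicate 1 or 2, and to 1.57 without heat shock replicate 3, and it was 0.37 with a term for the libraries rich in strandless transcripts. The deposited table gives 1 pooled FPKM for each group and no error. In it the ratio of heat shock to control lay between 3.50 and 5.16 for the 42 names with a pooled control value above 5. These values belong to loci, some of which are shared with other genes. HNRNPUL2 and HNRNPUL2-BSCL2 have the same locus and value, and that of HNRNPH2 is joined with RPL36A. In bulk RNA, fewer cells and less RNA per cell cannot be told apart, and FPKM hold no measure of RNA per cell.

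**Figure D1:**
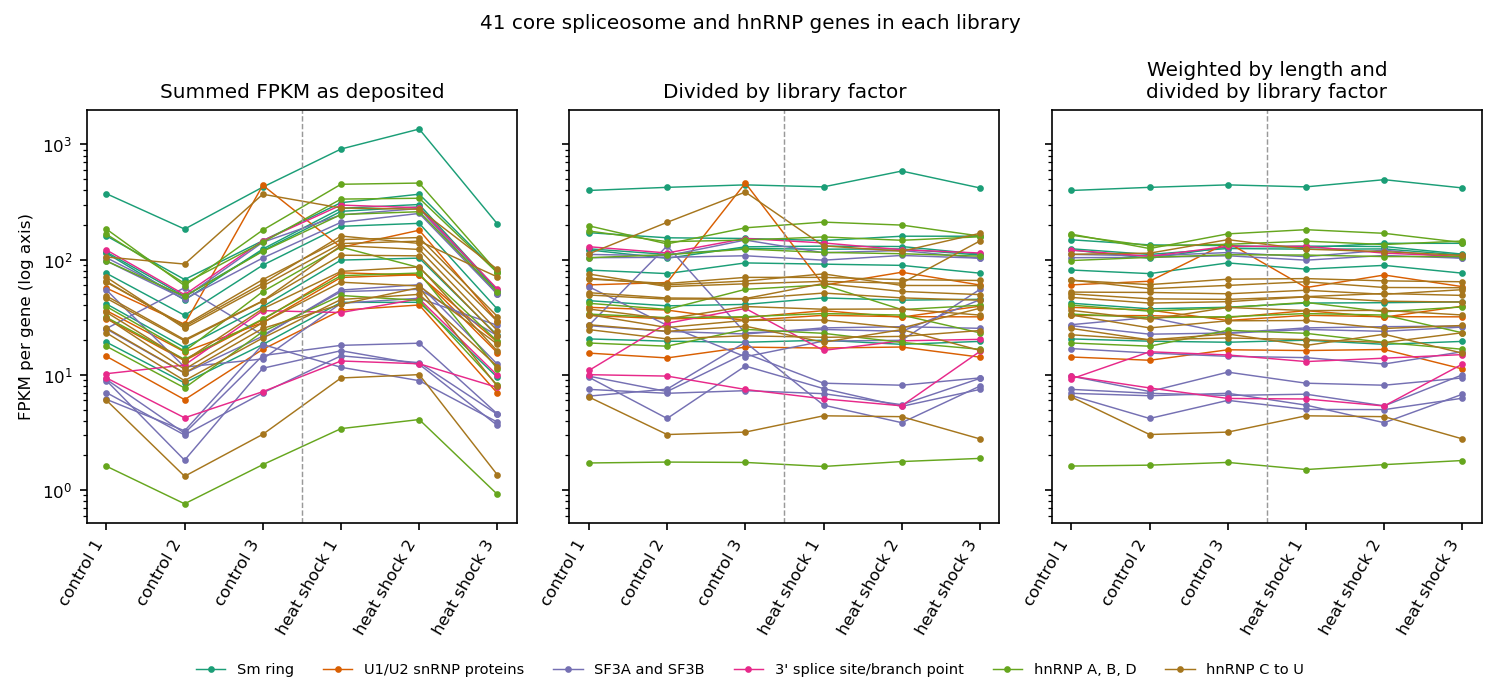
Lines show the 41 tested genes in the 6 libraries, colored by role, on a log axis of FPKM. As deposited (left) the lines move up and down together from library to library and heat shock replicate 3 lies near control replicate 2; divided by the library factor (middle), and also weighted by transcript length (right), most lines flatten, with a median ratio of highest to lowest library of 5.86, 1.35 and 1.26. On the middle scale 11 lines still span more than 2-fold, and on the right 3 do.

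When each library was divided by its factor, most of the genes varied far less between libraries, while some did not. The ratio of the highest to the lowest library had a median of 5.86 over the 41 genes as deposited, 1.35 relative to abundant genes, and 1.26 when each transcript was also weighted by its length. Over 2765 genes averaging 10 FPKM or more and above 0 in every library, these medians were 5.81, 1.84 and 1.40. On the relative scale the ratio was under 1.5 for 26 of the 41 genes and above 2 for 11, led by SNRPA1 at 7.70, SF3B2 at 5.69, SF3B4 at 4.99 and SF3A3 at 4.05. Weighted by length it was under 1.5 for 33 and above 2 for 3. HNRNPK stood at relative values of 67.8, 62.0 and 70.1 in control cells against 70.1, 67.1 and 65.9 after heat shock. The library that had been the highest by a factor of several was no longer set apart. The median change over the 41 genes was -0.01 on the log2 scale. After heat shock 17 of 41 were higher, against 3666 of all 13145 genes and 1208 of the 2644 averaging a relative 10 or more. The median over all genes tested was -0.21, that over the 2644 genes averaging a relative 10 or more was -0.03, and the scale thus centers abundant genes and not all genes. With size factors over all genes above 0 in every library, 37 of the 41 were higher and their median change was 0.40 against 0.10 for all genes, and with TPM 32 of the 41 were higher, with medians of 0.10 and -0.13.

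No gene of the group passed the test relative to abundant genes. The count at an adjusted p-value under 0.05 was 0 of 41 and 0% of all 13145 genes (limma, Benjamini-Hochberg adjustment), and at an unadjusted p-value under 0.05 it was 0 of 41 against 423 genes in all, or 3.22%. All heat shock libraries lay above all controls for 1 of 41 genes against 1.92% of all genes, and below them for 0 of 41 against 5.39%. In simulated data this fit called 26% of the genes changed 2-fold and 70% of those changed 8-fold. It called none of the heat shock genes either, so a count of 0 does not show that the genes were stable. The intervals bound what change could have gone unseen. The 95% interval of the change lay within 2-fold in both directions for 32 of the 41 genes, against 33.1% of all genes. Among genes averaging a relative 10 or more, 56.3% of all genes and 28 of the 34 of the group had such an interval. With transcripts weighted by length, the interval lay within 2-fold for 40 of 41 genes against 51.4% of all genes. It lay within 1.5-fold for 34 of 41 against 4005 of all 13145. Among the 2336 genes averaging 10 or more on this scale, 71.1% lay within 2-fold and 1319 within 1.5-fold. Of the 34 in the group at such levels, 33 lay within 2-fold. By the values weighted by length, 0 of 41 passed an unadjusted p-value of 0.05, against 2.42% of all genes. The groups stood fully apart with heat shock above for 1 of 41, against 1.43%.

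**Figure D2:**
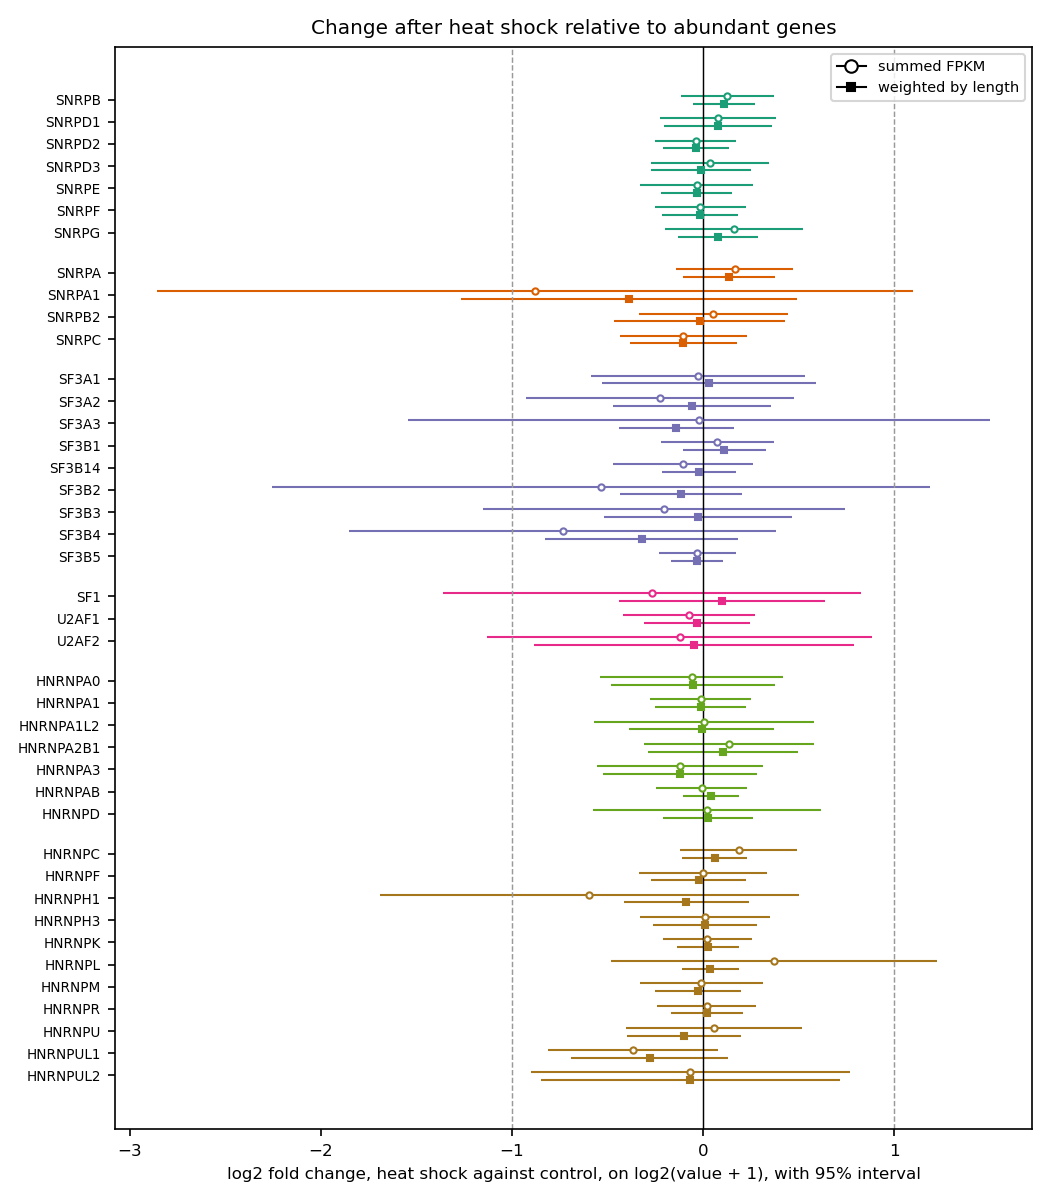
Points show the log2 fold change of each of the 41 genes, heat shock against control, relative to abundant genes, with its 95% interval from limma; open circles are summed FPKM and squares are FPKM weighted by transcript length, and dashed lines mark 2-fold. Every interval spans 0, and the wide intervals of SNRPA1, SF3B2, SF3A3 and HNRNPH1 narrow when transcripts are weighted by length.

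The Sm ring genes were the most even group. The ring is built from 7 proteins, whose tested genes here were SNRPB, SNRPD1, SNRPD2, SNRPD3, SNRPE, SNRPF and SNRPG. The 95% interval lay within 1.5-fold for all 7, against 1178 of all 13145 genes and 893 of the 2644 averaging a relative 10 or more. SNRPB, which encodes the largest ring protein, was the gene whose groups did not overlap. Its relative values were 44.04, 39.7 and 40.9 in control cells against 46.5, 44.5 and 45.2 after heat shock. All 3 heat shock values were higher, by a gap of less than 1 unit between the nearest libraries, and the log2 change was 0.13 ± 0.10 (SE, n = 3 against 3; limma adjusted p = 0.911). In heat shock replicate 1, annotated transcripts made up 56.6 of the 99.1 FPKM of SNRPB. By annotated transcripts alone, that library was the lowest of all, at a relative 26.6, and the log2 change was -0.13. Weighted by length, the nearest values of the groups were 41.8 and 41.96. SNRPG was the most abundant gene of all 41. It stood at relative values of 398, 424 and 445 in control cells against 428, 587 and 419 after heat shock. Heat shock replicate 2 was the highest and the other 5 libraries overlapped, with a log2 change of 0.16 ± 0.15 (SE). SNRPD1 stood at 121, 103 and 129 in control cells against 131, 130 and 112 after heat shock, which overlap. SNRPE stood lowest of the 7, at 19.2 to 20.5 in control cells against 18.4 to 20.0 after heat shock. The transcripts of proteins that assemble in equal numbers into 1 ring thus differed by more than 20-fold in mean FPKM, from SNRPE to SNRPG. That comparison is uncertain, since reads of the small Sm genes may be split among copies. In heat shock replicate 2, annotated transcripts made up 847 of the 1359 FPKM of SNRPG. As listed, the differences between the genes were far larger than any difference between the groups.

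The proteins particular to the U1 and U2 particles gave 1 outlying value. SNRPA and SNRPC encode the U1 proteins A and C, and SNRPA1 and SNRPB2 encode the U2 proteins A′ and B″. SNRPA stood at relative values of 32.8, 30.6 and 31.4 in control cells against 36.0, 31.7 and 39.5 after heat shock. The heat shock values reached higher but overlapped the controls at 1 library, and the log2 change was 0.17 ± 0.12 (SE). SNRPC stood at 38.5, 36.5 and 29.6 against 32.9, 32.0 and 31.9. SNRPA1 stood at 60.4, 63.2 and 462 in control cells against 59.9, 77.7 and 60.2 after heat shock. Control replicate 3 lay far above the other 5 libraries, and of its 442 FPKM as deposited 428 came from 1 assembled fragment of 2 exons and 299 bases. Weighted by length, control replicate 3 stood at 140 against a median of 62.7 over the 6 libraries, and the log2 change was -0.39 ± 0.35 (SE) in place of -0.88 ± 0.80.

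In the SF3A and SF3B complexes, 9 of 9 genes were tested and the relative mean was higher after heat shock for 1. SF3B14, named SF3B6 in RefSeq, encodes the small protein that touches the branch point, and it stood at relative values of 111, 108 and 148 in control cells against 115, 120 and 103 after heat shock. Control replicate 3 was the highest and the groups overlapped. SF3B1, the large subunit that holds the branch point helix, stood at 26.7, 23.8 and 22.6 in control cells against 25.6, 26.2 and 25.3 after heat shock, with a log2 change of 0.08 ± 0.12 (SE). SF3B5 stood at 104, 105 and 108 against 98.9, 109 and 103. The groups overlapped for both genes, which were named after their values were seen. SF3B2 stood at 26.9, 131 and 23.1 against 24.8, 23.9 and 44.9, and of the 57.1 FPKM deposited for control replicate 2, 52.2 came from 1 assembled fragment of 2 exons. Weighted by length, its 6 values lay between 22.9 and 31.5. SF3A2 stood at 9.73, 7.17 and 15.4 in control cells against 8.46, 8.13 and 9.41 after heat shock, where control replicate 3 was the highest and held 3 assembled fragments. The lowest change of these complexes was that of SF3B4, which had a mean below 10 FPKM, at -0.73 ± 0.45 (SE), and it was -0.32 ± 0.20 when weighted by length.

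Of the genes for recognition of the branch point and the 3′ splice site, U2AF1 was the most abundant. U2AF1 encodes the small subunit of U2AF, which contacts the AG at the end of the intron, and U2AF2 encodes the large subunit, which binds the pyrimidine tract before it. As deposited, U2AF1 stood at 121, 49.6 and 146 FPKM in control cells against 297, 282 and 55.5 FPKM after heat shock. On the relative scale these became 129, 114 and 153 in control cells against 140, 122 and 114 after heat shock, which overlap, with a log2 change of -0.07 ± 0.14 (SE). SF1, the branch point binding protein, stood at 10.9, 28.01 and 37.7 against 16.3, 19.7 and 20.3. The controls spread on both sides of the heat shock libraries. In control replicate 3 the whole value of 36.1 FPKM belonged to 1 assembled fragment of 4 exons. Annotated SF1 transcripts were also listed at 0 in control replicate 2 and heat shock replicate 1. They made up 6.16 of 45.7 FPKM in heat shock replicate 2 and 1.97 of 9.89 FPKM in heat shock replicate 3. Only the value of control replicate 1 rested on annotated SF1 transcripts alone. U2AF2 stood at 7.47 to 10.0 in control cells against 6.19, 5.39 and 15.97 after heat shock.

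In the hnRNP A, B and D families no gene passed the test. HNRNPA2B1 and HNRNPA1, the most abundant of the 7 genes, encode major proteins of the nuclear hnRNP particle. HNRNPA2B1 stood at relative values of 196, 137 and 189 in control cells against 212, 199 and 160 after heat shock. Its annotated transcripts were listed at 0 in every library except control replicate 2, where they made up 6.53 of 59.5 FPKM. The rest of each value belonged to assembled transcripts grouped with the gene. Heat shock replicates 1 and 2 were the highest and heat shock replicate 3 fell among the controls, with a log2 change of 0.14 ± 0.18 (SE). HNRNPA1 stood at 177, 143 and 148 against 157, 147 and 158. HNRNPA3 stood at 33.7, 31.4 and 31.9 in control cells against 34.0, 33.03 and 23.2 after heat shock, where only heat shock replicate 3 stood apart. The 7 genes of these families had log2 changes between -0.12 and 0.14, and 7 of 7 had an interval within 2-fold.

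Among the other hnRNP families, 9 of 11 tested genes had an interval within 2-fold. HNRNPH1 binds G-rich motifs and had the highest mean, at relative values of 112, 211 and 386 in control cells against 132, 118 and 169 after heat shock. Control replicate 3 was the highest, and of its 369 FPKM as deposited 300 came from 1 assembled fragment of 4 exons. Weighted by length, its 6 values lay between 109 and 149, and the log2 change was -0.09 ± 0.13 (SE) in place of -0.60 ± 0.45. HNRNPL, which binds CA repeats, stood at 75.0, 58.3 and 61.7 in control cells against 64.8, 62.5 and 145 after heat shock, and of the 70.7 FPKM deposited for heat shock replicate 3, 65.1 came from 1 single-exon fragment. Weighted by length it lay between 50.01 and 54.9 in all 6 libraries. HNRNPC, which binds uridine tracts, stood at 51.7, 46.4 and 45.9 in control cells against 62.1, 52.9 and 49.7 after heat shock. The groups overlapped at 1 library, and the log2 change was 0.19 ± 0.12 (SE). By annotated transcripts alone, HNRNPC stood at 38.2, 46.4 and 45.9 in control cells against 22.6, 13.3 and 49.7 after heat shock. The log2 change of HNRNPC was then -0.78. Its higher sums in heat shock replicates 1 and 2 thus rested on assembled transcripts. HNRNPUL1 stood at 27.2, 23.9 and 26.4 in control cells against 19.2, 24.7 and 16.3 after heat shock. Heat shock replicates 1 and 3 were below every control, and its log2 change of -0.37 ± 0.18 (SE) had the smallest p-value of the 41 genes, at 0.0904 unadjusted and 0.911 adjusted (limma).

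**Figure D3:**
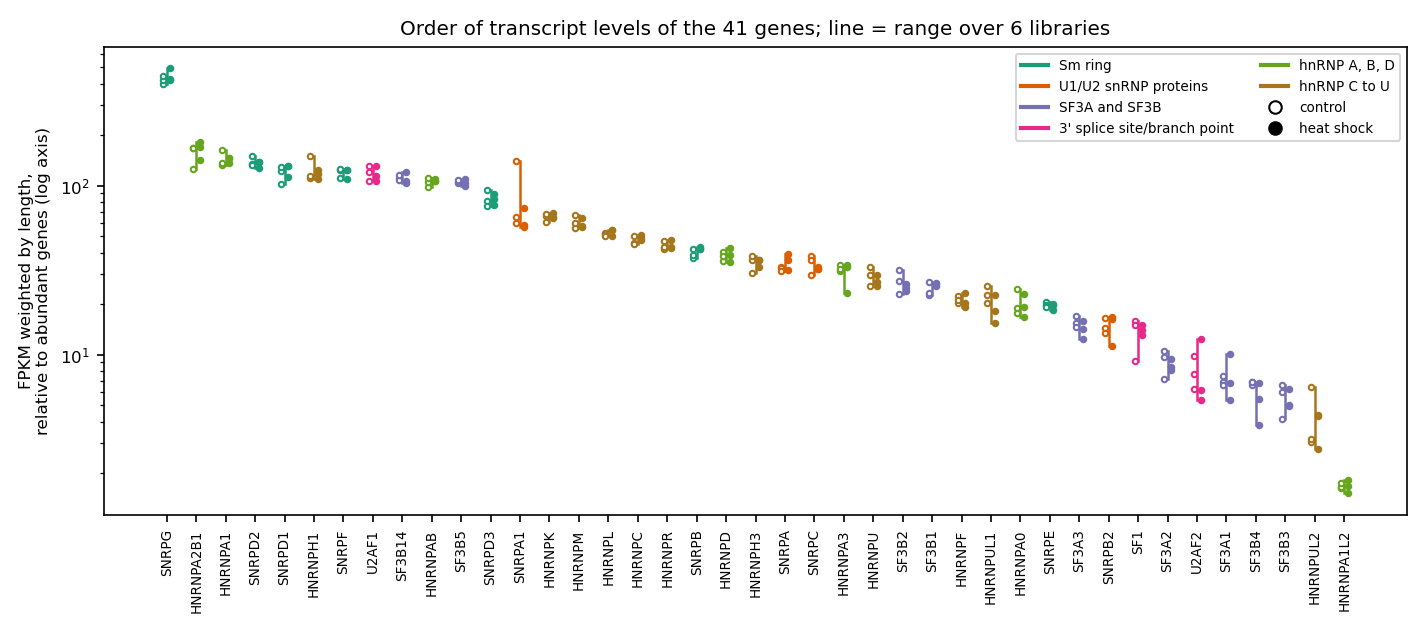
Points show the level of each of the 41 genes in the 3 control (open) and 3 heat shock (filled) libraries, as FPKM weighted by transcript length relative to abundant genes on a log axis, with a line over the range and genes in order of their mean. The levels run from 1.66 for HNRNPA1L2 to 435 for SNRPG, and the open and filled points of a gene lie together.

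The genes spanned a wide range of levels, and most neighbours in their order were not separated. Over the 41 genes weighted by length, Spearman's rho between any 2 of the 6 libraries was 0.974 to 0.993 across the 15 pairs, which describes genes and not replicates, since all points of a library share its assembly, and a range of levels this wide brings rho near 1. SNRPG led with a mean of 435 and a range of 398 to 494, above the range of the next gene. HNRNPA2B1, HNRNPA1, SNRPD2, SNRPD1, HNRNPH1, SNRPF, U2AF1, SF3B14, HNRNPAB and SF3B5 followed between 158 and 105, each overlapping the next except SF3B5, which lay above SNRPD3. Of the 40 pairs of neighbours, 5 did not overlap in their 6 values. The subunits of SF3B alone spanned 5.51 for SF3B3 to 111 for SF3B14. Summed over the 45 genes and weighted by length, the relative level was 2577, 2406 and 2709 in control cells against 2592, 2629 and 2452 after heat shock. Heat shock replicate 3 and control replicate 2 were the lowest, and the group means of 2564 and 2557 differed by less than the spread within either group. As a share of all gene FPKM the 45 genes held 1.12%, 0.984% and 1.12% in control cells against 1.12%, 1.16% and 1.03% after heat shock.

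The isoforms of U2AF1 gave a difference between groups that was small but larger than the spread between the libraries of either group. They were singled out after their values were seen. U2AF1 lies on chromosome 21 at chr21:44513066-44527688 (hg19, minus strand), and 2 transcripts, NM_006758 and NM_001025203, were listed above 0 in every library. They have 8 exons each, share 7 of them, and differ in exon 3, for which each uses 1 of 2 coding exons of 67 bases that lie 846 bases apart. A transcript that holds both exons, NM_001025204, was listed at 0 throughout. The exons are shown because the shares below rest on the reads that tell them apart, with the bases that differ between them in capitals (GRCh37, sense strand, 5′ to 3′). They are identical at 44 of 67 positions (65.7%).
NM_006758, chr21:44520563-44520629: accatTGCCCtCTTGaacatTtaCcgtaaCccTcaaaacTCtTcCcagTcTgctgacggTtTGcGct
NM_001025203, chr21:44521476-44521542: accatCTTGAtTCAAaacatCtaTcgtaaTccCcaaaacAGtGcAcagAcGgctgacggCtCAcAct
The 30 intron bases before each exon follow, with the terminal AG, the dinucleotide that the U2AF1 protein itself contacts, in capitals. Before the AG, 16 of 28 bases are pyrimidines at the exon of NM_006758 and 25 of 28 at the exon of NM_001025203.
NM_006758, chr21:44520630-44520659: aatataaagttgttgcgttttgtatttcAG
NM_001025203, chr21:44521543-44521572: attcccctttttatttttttttccccgcAG

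The share of NM_001025203 in annotated U2AF1 FPKM was 52.3%, 50.5% and 50.8% in control cells against 57.2%, 56.5% and 56.7% after heat shock. All 3 heat shock shares lay above all 3 controls by at least 4.17 percentage points, while shares within a group spanned less than 2 points, and the other transcript moved by the same amount in the opposite direction. The group means were 51.2% ± 0.961 and 56.8% ± 0.362 (SD, n = 3 each), a difference of 5.57 percentage points, with p = 0.1 by an exact permutation test, two-sided, which is the smallest p that 3 libraries against 3 allow. Every transcript whose groups do not overlap gets this p, so the test adds nothing to the separation itself. A share within a gene does not depend on the factor of its library. Heat shock replicate 3 lay with the other heat shock libraries here, which holds for any transcript whose groups do not overlap. That was so for 7.57% of all 845 transcripts, and this one was picked after its values were seen. The limma fit across 845 transcripts of 363 genes did not call it (adjusted p = 0.915), but in simulated data this fit recovered none of the shifts put in, which were larger than this one, so the missing call says nothing of the difference. That fit called 0% of all transcripts, with 3.31% under an unadjusted p-value of 0.05. A second limma fit, added after the values were seen, kept the 195 transcripts above 0 in every library. It did not call the difference either (adjusted p = 0.238), although both U2AF1 transcripts were among the 5.64% with an unadjusted p-value under 0.05, and it called 0% after adjustment. In control replicate 3, the annotated transcripts made up 53.1% of the FPKM of U2AF1 and the rest belonged to 1 assembled fragment assigned to neither, while in the other 5 libraries they made up 100%. The 95% intervals of Cufflinks for the level of NM_001025203 reached 6.11% to 15.0% of the value on either side, and those for NM_006758 reached 7.29% to 23.8%, widest in control replicate 3. They cover the counting and assignment of fragments only. In control replicate 3 they ran from 33.5 to 45.3 FPKM for NM_001025203 and from 29.0 to 47.2 FPKM for NM_006758. No interval was computed for a share, so the error of a single share may exceed the difference between the groups.

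**Figure D4:**
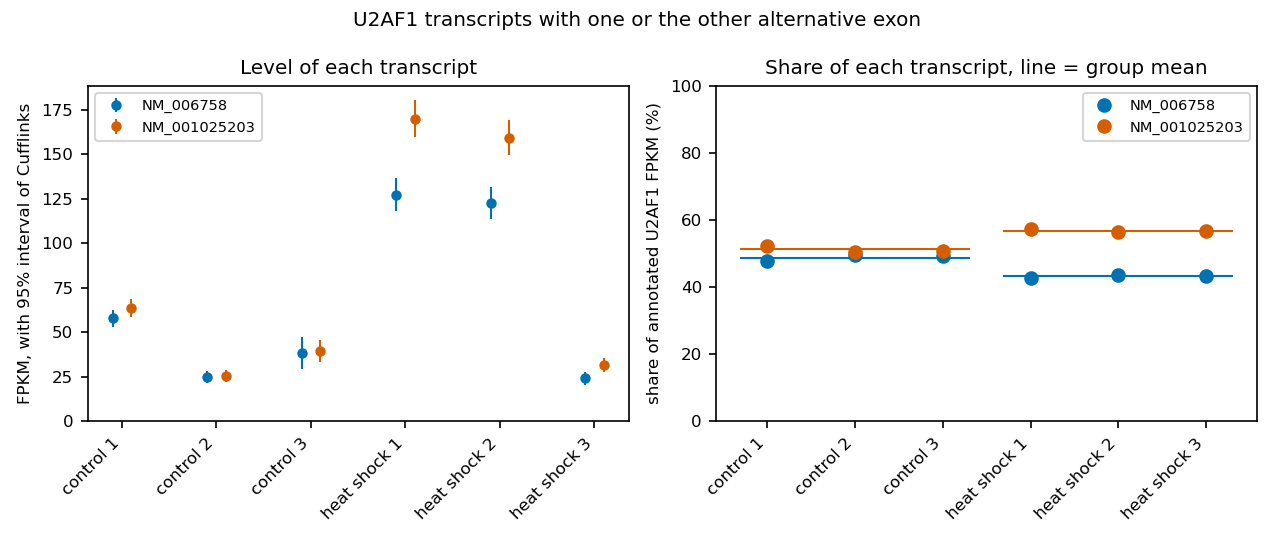
FPKM of the U2AF1 transcripts NM_006758 and NM_001025203 in each library with the 95% interval of Cufflinks (left), and the share of each in annotated U2AF1 FPKM in percent with lines at the group means (right). The levels follow the library factor, while the shares of NM_001025203 lie at 50.5% to 52.3% in control cells against 56.5% to 57.2% after heat shock.

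The other isoforms gave no call. In all, 23 transcripts of 11 genes of the group entered the fit, none was called and none had an unadjusted p-value under 0.05. The groups did not overlap for 4 of the 23, the mirrored pairs of U2AF1 and SNRPB, against 7.57% of all transcripts. Among transcripts above 0 in all libraries, 2 of 4 did not overlap, both of U2AF1, against 12.3%. For SNRPB, the share of NM_003091 was 60.5%, 54.1% and 56.6% in control cells against 100%, 60.8% and 60.7% after heat shock, where heat shock replicate 1 listed the other transcript at 0. Without that library the nearest values of the groups were 60.5% and 60.7%. HNRNPD, known as AUF1, binds AU-rich elements, and its transcript NM_002138 held 54.7%, 54.1% and 70.3% in control cells against 67.3%, 65.4% and 49.6% after heat shock. In control replicate 3 and heat shock replicate 1 annotated transcripts made up 57.1% and 57.6% of HNRNPD FPKM. The values of the groups overlap, and their means of 59.7% and 60.8% differed by less than either SD. The shares of HNRNPC, HNRNPR, HNRNPH1, HNRNPUL1, HNRNPM, HNRNPAB, HNRNPH3 and SNRPB2 each included a transcript listed at 0 in at least 1 library, which can be a failed estimate in so abundant a gene.

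Single-exon transcripts without a strand were also present inside the introns of these genes. Those that touched no annotated exon numbered 42, 57 and 29 in control cells against 18, 22 and 60 after heat shock. As FPKM times length, they came to 2.62%, 5.08% and 2.06% of the genes' own transcripts in control cells against 1.44%, 2.45% and 4.98% after heat shock. Pieces in HNRNPUL2 were counted again for HNRNPUL2-BSCL2, whose locus includes it. The counts and shares are therefore somewhat too high in every library except control replicate 3. The highest shares were those of control replicate 2 and heat shock replicate 3, the libraries with the lowest factor, and the groups overlapped. Such pieces have no strand, so they cannot be assigned to these genes or to others on the opposite strand. U2AF2 carried 28.6, 16.8 and 21.4 FPKM times kilobases of them in control cells against 1.59, 12.5 and 17.9 with heat shock. In HNRNPA1 they were listed at 0 in all controls and in heat shock replicate 3, and at 31.5 and 29.2 in heat shock replicates 1 and 2, where each was 1 piece within 100 bases of an exon. Both genes were named after their values were seen.

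Other genes of the pathway, from lists made by role, were also mostly not set apart between the groups. Of 65 other spliceosome proteins, 63 were tested, 0 passed the adjusted test relative to abundant genes, while 1 was higher and 2 lower with p under 0.05 before adjustment. The median change was -0.06 on the log2 scale, and all heat shock libraries lay above the controls for 1 and below them for 5. Over all genes tested, 1.92% lay above and 5.39% below, and 3.22% had an unadjusted p-value under 0.05 (limma). The counts of this list lay near those shares. Of 15 RNA-binding proteins like hnRNPs but named otherwise, which included the older spellings HNRPDL and HNRPLL, 15 were tested, 0 had an unadjusted p-value under 0.05, and the median change was 0.11. For the 11 heat shock genes tested the median change was 0.35, with 5 higher and 0 lower by unadjusted p, though 0 passed after adjustment.

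The promoters were searched for a heat shock element of 3 units, to which heat shock factors are known to bind, read as GAA, TTC and GAA with 2 free bases between units or as TTC, GAA and TTC on the other strand, in the 250 bases before the start of each gene in RefSeq (GRCh38.p14). A match was found for 1 of the 42 genes of the group with an entry, 2 of 12 heat shock genes, 0 of 56 other spliceosome genes and 120 of 27305 promoters in all (0.439%). The match in the group was in HNRNPA2B1, 38 to 26 bases before its start, and it is shown as the one match among the genes described (minus strand, 5′ to 3′, the match in capitals).
HNRNPA2B1, chr7:26200747-26200817 of GRCh38.p14: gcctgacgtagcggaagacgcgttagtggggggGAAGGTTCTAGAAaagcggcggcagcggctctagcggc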

How the data were processed

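Per the submitters' processing notes, reads passed through FastQC 0.10.1 and Trimmomatic 0.3.0, TopHat2 placed them on hg19, and Cufflinks 2.0.2 built transcripts library by library. The deposited value of each transcript, made by the authors, is an FPKM with an interval. A deposited table from Cuffdiff gives pooled FPKM per group, and its fold changes and p-values were not used. FPKM were summed per gene over annotated transcripts and the assembled transcripts grouped with that gene alone. Of 43536 annotated transcripts, 96.5% were paired with a symbol by accession, 614 by gene name and 548 by a shared exon. FPKM are not counts, so log2(FPKM + 1) of genes averaging 1 FPKM or more entered limma (version 3.58.1, R 4.3.3), which understates the change of low genes, as deposited and after division by the library factor, and p-values were adjusted over all genes. Isoform shares were tested on the arcsine square root for transcripts with mean shares of 5% to 95% in genes averaging at least 10 FPKM. The fits were tested on simulated data. There the relative fit called 26% of the genes changed 2-fold and 70% of those changed 8-fold, with 6 false calls. Its counts of 0 therefore carry little weight. The fit as deposited and the isoform fit recovered none of the differences put in, so their counts of 0 carry no weight. Weighting by length summed FPKM times length and divided by the longest annotated transcript of the gene. Genes named with values were those whose groups did not overlap, the highest mean of each role, and 10 more by size of relative change among those averaging 10 FPKM or more. HNRNPK, SNRPE, SF3B1, SF3B3, SF3B4, SF3B5, U2AF2, HNRNPA1 and HNRNPD were named after their values were seen, as were weighting by length, the factor without the members and the isoform fit on transcripts above 0 in every library. The members and lists were chosen with earlier results of these data known. Depth is known only relatively, and 3 libraries per group limit the precision.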

Additional observations from a re-analysis of the deposited data

How the results depend on the processing

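No gene of the group was called under the alternatives run, as deposited or relative. None of its isoforms was called, where unadjusted p-values were under 0.05 for 0 of 23 in the full fit and for both U2AF1 transcripts among those above 0 in every library. Over all genes, the 3 calls as deposited became 0 to 17 under the adjusted alternatives, 17 with the replicate block. Same-numbered libraries did not deviate together (r = -0.06, -0.06 and -0.15), so the numbers were not taken to pair them. With the replicate block, 0 genes of the group were called in either fit, the median changes stayed at 0.84 and -0.01 and 0 isoforms were called. The median change relative to abundant genes was 0.40 with size factors over all genes and 0.10 with TPM, and -0.06 to 0.04 when a library was left out. The count of genes whose groups did not overlap was 0 with TPM and with annotated transcripts alone, and 2 to 7 when any of the 6 libraries was left out, where 2 against 3 separate more easily. Several changes turned in sign, and not only those near 0. With size factors over all genes, U2AF1 was at 0.36, SF3B14 0.32, HNRNPUL1 0.054, SF1 0.15, SF3A2 0.16, HNRNPA3 0.30 and SNRPC 0.32. With TPM, U2AF1 was at 0.055, SF3B14 0.020, HNRNPA3 0.0031 and SNRPC 0.021. With annotated transcripts alone, SNRPB was at -0.13, U2AF1 0.23, SNRPG -0.066, HNRNPA2B1 -1.33, HNRNPH1 0.21, SF3B2 0.22, HNRNPL -1.98, SF1 0.21, SF3A2 0.53 and HNRNPC -0.78. SF1 was at 0.098 when weighted by length, a choice made after the values were seen. Leaving out 1 library gave ranges across 0 for HNRNPA2B1 (-0.026 to 0.26), HNRNPA3 (-0.22 to 0.052), HNRNPL (-0.022 to 0.58), SF1 (-0.77 to 0.084), SF3A2 (-0.46 to 0.044), SF3B14 (-0.19 to 0.037), SF3B2 (-0.98 to 0.25), SNRPA1 (-1.38 to 0.082), SNRPD1 (-0.016 to 0.15) and U2AF1 (-0.17 to 0.037). The cause was not tested. Keeping intronic pieces at least 100 bases from an exon moved the mean shares from 3.25% to 2.22% in control and from 2.96% to 2.32% in heat shock, within 1 SD. Depth is known only relatively, so intervals for low values could not be given.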
